A study of Mus musculus with 25 samples.

Results

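The genes described here are 10 genes of triglyceride synthesis and glyceroneogenesis, Gpam, Agpat2, Agpat3, Lpin1, Dgat1, Dgat2, Mogat1, Pck1, Gpd1 and Aqp7, chosen by symbol from the 54752 genes counted in bulk RNA-seq of mouse white fat. The study asked how loss of Acod1 affects mice made obese by diet. Epididymal (eWAT) and inguinal (iWAT) white adipose tissue was taken from male C57BL/6N mice (C57BL/6NJ in the treatment protocol), wild type (WT) or Acod1-/- (KO), the latter without functional Acod1 in any cell of the body. WT mice on normal chow diet (ND) gave 4 eWAT and 3 iWAT libraries, WT mice on high-fat diet (HFD, 60% of calories from fat) gave 5 and 5, and KO mice on HFD gave 5 and 3. The diet began at 5 weeks of age and lasted 16 weeks, except that the second and the third iWAT libraries of HFD-fed KO mice carry the labels 17 and 18 weeks. No library came from KO mice on ND, which the paper measured in other assays. In these libraries an effect of Acod1 loss without HFD thus cannot be told apart from one that needs it. Each library holds all cells of the depot, so that fewer adipocytes and less RNA per adipocyte cannot be told apart.

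White adipocytes store energy as triglyceride, built by adding fatty acyl chains to glycerol-3-phosphate. Gpam encodes the mitochondrial glycerol-3-phosphate acyltransferase that attaches the first chain, Agpat2 and Agpat3 encode lysophosphatidic acid acyltransferases for the next step, Lpin1 encodes a phosphatidate phosphatase that yields diacylglycerol, and Dgat1 and Dgat2 encode the diacylglycerol acyltransferases that finish the molecule. Mogat1 encodes a monoacylglycerol acyltransferase, which reaches diacylglycerol without glycerol-3-phosphate. The glycerol backbone comes from glucose through the glycerol-3-phosphate dehydrogenase Gpd1, or from pyruvate and amino acids through glyceroneogenesis, whose key enzyme is the cytosolic phosphoenolpyruvate carboxykinase Pck1. Aqp7 is the membrane channel through which adipocytes pass glycerol. Acod1 makes itaconate, mainly in activated macrophages.

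All 10 are protein-coding genes of the GRCm38 mouse build (GENCODE vM21). Pck1 lies on chr2:173153048-173159273 (+ strand), Mogat1 on chr1:78510991-78538173 (+), Lpin1 on chr12:16535669-16610966 (−), Gpam on chr19:55067268-55127238 (−) and Agpat2 on chr2:26593057-26604417 (−). Agpat3 is on chr10:78269178-78352489 (−), Dgat1 on chr15:76502015-76511953 (−), Dgat2 on chr7:99153658-99182719 (−), Gpd1 on chr15:99717515-99725005 (+) and Aqp7 on chr4:41033074-41048139 (−). No exon of another gene overlaps the exons of 6 of them. Genes on the opposite strand cover 12.97% of the exon bases of Gpd1 (Gm16537), 12.8% of Mogat1 (BC035947), 3.005% of Agpat2 (Egfl7) and 0.205% of Agpat3 (Gm40709). The kit kept strand, but whether the counting used it is not given in the sources used here, so that reads from those stretches could come from either gene.

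RefSeq promoters (GRCm38.p6, 250 bases before to 50 after the start site) were at hand for 7 of the 10 genes. The promoters of Pck1, Mogat1 and Lpin1 are shown. These genes were called lower on HFD in both depots and higher in KO than in WT eWAT. The iWAT call of Lpin1 held in only 5 of 11 fits that left out 1 library. Of the 11, 3 dropped a KO library, which is outside that comparison. The Agpat2 promoter is shown because the gene rose on HFD in both depots. All are written 5′ to 3′ on the gene's own strand, at chr2:173152823-173153122 (+, Pck1), chr1:78510810-78511109 (+, Mogat1), chr12:16610917-16611216 (−, Lpin1) and chr2:26604368-26604667 (−, Agpat2). Capitals mark any match, on either strand, to the letters AGGTCA (a nuclear receptor half-site), ACGTCA (a cAMP response element half-site), CACGTG (an E-box), CCAAT or TATAAA.
Pck1: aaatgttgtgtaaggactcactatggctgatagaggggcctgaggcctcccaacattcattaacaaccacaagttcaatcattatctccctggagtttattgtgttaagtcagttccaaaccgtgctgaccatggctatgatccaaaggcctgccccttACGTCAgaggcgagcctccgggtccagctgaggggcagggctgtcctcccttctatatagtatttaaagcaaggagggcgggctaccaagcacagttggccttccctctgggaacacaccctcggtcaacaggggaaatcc
Mogat1: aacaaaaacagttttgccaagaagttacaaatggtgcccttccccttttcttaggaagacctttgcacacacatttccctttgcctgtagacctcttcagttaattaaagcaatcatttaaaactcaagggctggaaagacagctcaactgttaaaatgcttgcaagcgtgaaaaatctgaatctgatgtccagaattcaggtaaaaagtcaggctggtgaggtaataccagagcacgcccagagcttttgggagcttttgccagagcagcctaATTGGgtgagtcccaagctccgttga
Lpin1: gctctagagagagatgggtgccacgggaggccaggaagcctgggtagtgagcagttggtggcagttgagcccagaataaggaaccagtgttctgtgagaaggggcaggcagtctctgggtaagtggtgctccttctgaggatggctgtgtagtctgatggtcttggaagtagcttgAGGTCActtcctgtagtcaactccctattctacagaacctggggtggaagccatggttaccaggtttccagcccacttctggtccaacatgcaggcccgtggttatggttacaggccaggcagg
Agpat2: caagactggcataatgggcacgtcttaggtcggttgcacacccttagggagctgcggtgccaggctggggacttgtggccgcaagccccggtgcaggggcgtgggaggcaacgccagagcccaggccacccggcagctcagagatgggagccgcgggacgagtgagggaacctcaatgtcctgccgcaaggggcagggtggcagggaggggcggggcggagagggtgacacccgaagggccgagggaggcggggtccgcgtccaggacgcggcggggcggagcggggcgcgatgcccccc
The Pck1 window holds ACGTCA starting 91 bases before the start site, a match that 7.51% of the 32851 mouse promoters in the table share. The Lpin1 window holds AGGTCA starting 74 bases before the start, as do 16.3% of promoters at some position. In Mogat1 the only match is CCAAT on the opposite strand, 24 bases after the start, and 37.4% of promoters hold CCAAT. The Agpat2 window holds none of these letters. CACGTG (7.15% of promoters) and TATAAA (13.6%) matched in none of the 4 windows. A match of letters is a description of the sequence and no evidence of binding.

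Libraries held 31405063 to 52335623 reads counted in genes, a depth at which the lowest count of any of the 10 genes in any library was 179 (Mogat1). Acod1 itself had 0 to 9 reads in WT and 0 to 2 in KO libraries, with libraries at 0 in every group, so its counts check no genotype label. The 6 adipocyte markers summed to between 17128 and 48784 counts per 1000000 counted reads (CPM) in every library, at which none was at 0. Markers of other tissues were highest in 4 libraries: epididymis markers summed to 7682 CPM in the second eWAT ND library and to 1053 in the fifth eWAT KO library, skeletal muscle markers to 6801 CPM in the first iWAT ND library, and epithelial markers to 531 CPM in the second iWAT KO library. The second eWAT ND library also held 312 CPM of epithelial markers, and elsewhere these sums reached at most 399 CPM (skeletal muscle, first iWAT KO library) and 125 CPM (epididymis, first eWAT KO library). The B and T cell markers summed to between 389 and 581 CPM in the 3 iWAT ND libraries and to at most 63.0 CPM in the other iWAT libraries. The column headers carry library numbers in 2 series, and what separates these series is not stated. All 7 ND libraries are in the second, together with 1 library from each of the 4 HFD groups, so that diet and series overlap in large part.

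Levels are compared between genes per transcript length. The most abundant was Pck1 in ND-fed mice, at 2097 ± 527 transcripts per 1000000 (TPM; SD, n = 4) in eWAT and 3414 ± 566 TPM (n = 3) in iWAT. In HFD-fed WT mice Dgat2 was the most abundant, at 2000.4 ± 576 TPM (n = 5) in eWAT and 2361 ± 459 TPM (n = 5) in iWAT, and Pck1 ranked 4 of the 10 in both depots. HFD-fed KO mice had Dgat2 at 2414 ± 448 TPM (n = 5) and Pck1 at 1283 ± 632 TPM in eWAT. In iWAT of HFD-fed KO mice Pck1 (1976 ± 200.2 TPM, n = 3) and Dgat2 (1964 ± 758 TPM) did not differ beyond their spread. Group means ran from 614 to 1636 TPM for Gpd1 and from 309.8 to 1075 TPM for Agpat2. Both ranked above Pck1 in the HFD-fed WT groups of both depots. In iWAT on ND the mean of Gpd1 (1399 TPM) was above that of Dgat2 (742 TPM). The middle was held by Dgat1 (176 to 249 TPM), Aqp7 (152 to 226 TPM) and Lpin1 (107 to 264 TPM), whose ranges overlap. Agpat3 (51.9 to 90.1 TPM), Mogat1 (17.7 to 97.2 TPM) and Gpam (18.3 to 48.02 TPM) were the least abundant in every group. Of the 2 diacylglycerol acyltransferase genes, Dgat2 thus exceeded Dgat1 in all 6 groups.

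**Figure D1:**
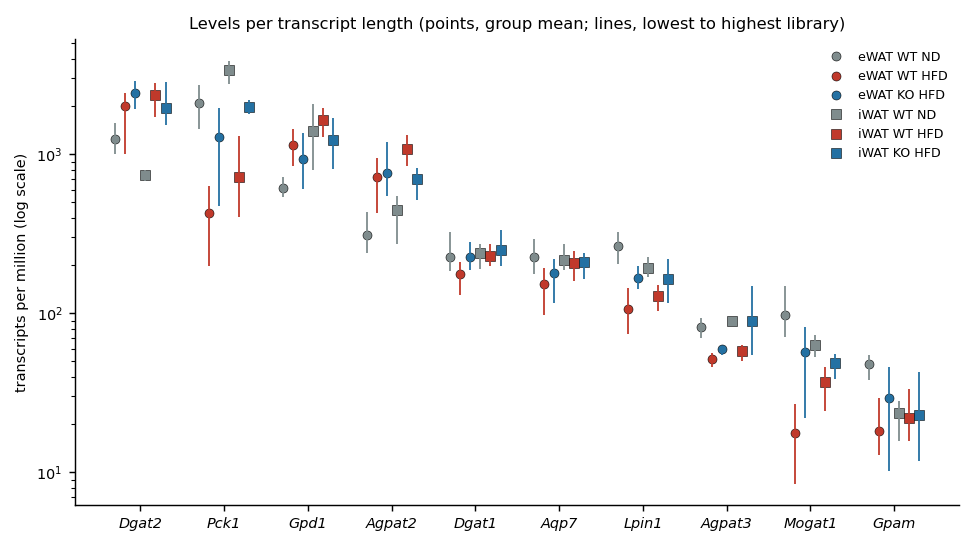
Levels of the 10 genes per transcript length, in TPM on a log axis. Points are group means and lines run from the lowest to the highest library (eWAT, circles; iWAT, squares; grey, WT on ND; red, WT on HFD; blue, KO on HFD). Pck1 spans the widest range among the abundant genes, from 426 TPM in eWAT of HFD-fed WT mice to 3414 TPM in iWAT of ND-fed mice.

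HFD changed most of these genes in WT eWAT, and in both directions. The glyceroneogenic Pck1, the alternative acyltransferase Mogat1, Gpam, Lpin1 and Agpat3 fell, while Agpat2, Dgat2 and Gpd1 rose. Thus 8 of the 10 genes passed the test (edgeR's quasi-likelihood test, Benjamini-Hochberg adjusted p under 0.1 over all genes tested), 3 higher and 5 lower, beside 51.8% of all 14936 genes (24.8% higher and 26.9% lower). The ND and HFD libraries did not overlap for 6 of the 10, against 35.2% of all genes. The median log2 fold change of the 10 was -0.45, and that of all genes -0.04.

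Pck1 stood at 1979, 1564, 2772 and 3207 CPM in the 4 ND libraries and at 288, 664, 586, 273 and 848 CPM in the 5 HFD libraries of WT eWAT. Every HFD library lay below every ND library, 4.47-fold lower (log2 fold change -2.16, SE 0.42, adjusted p = 0.00187). Mogat1 went from 32.2, 38.5, 51.3 and 79.4 CPM on ND to 4.24, 7.58, 13.8, 9.90 and 16.3 CPM on HFD, again without overlap. It was 4.85-fold lower (log2 fold change -2.28, SE 0.42, adjusted p = 0.00136), the largest change among the 10. Gpam was at 57.3, 58.0, 52.6 and 72.2 CPM on ND and at 15.9, 36.0, 30.3, 24.9 and 19.3 CPM on HFD (log2 fold change -1.24, SE 0.31, adjusted p = 0.00724). Lpin1 was at 577, 646, 1101 and 1076 CPM on ND and at 284, 325, 564, 289 and 436 CPM on HFD, with the highest HFD library just below the lowest ND library (log2 fold change -1.16, SE 0.24, adjusted p = 0.00263). Agpat3 showed the smallest decrease of those that passed, from 209 ± 27.2 CPM (n = 4) to 148 ± 20.8 CPM (n = 5; log2 fold change -0.49, SE 0.14, adjusted p = 0.0121).

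In the opposite direction, Agpat2, the acyltransferase whose loss causes lipodystrophy, was at 158, 211, 183 and 317 CPM on ND and at 292, 508, 808, 579 and 657 CPM on HFD. Only the first HFD library overlapped the ND range, and the gene was 2.62-fold higher (log2 fold change 1.39, SE 0.35, adjusted p = 0.00686). Gpd1 was at 524, 502, 626 and 738 CPM on ND and at 801, 1359, 1436, 1379.8 and 1258 CPM on HFD, without overlap (2.09-fold higher, log2 fold change 1.06, SE 0.28, adjusted p = 0.00943). Dgat2 was at 1410.0, 1270.2, 1118 and 1216 CPM on ND and at 999, 2094, 2970.2, 2527 and 2905 CPM on HFD, where the first HFD library lay below all ND libraries and the other 4 above (log2 fold change 0.88, SE 0.28, adjusted p = 0.0234). The same first HFD library held the lowest Agpat2, Gpd1, Dgat2, Gpam, Mogat1, Dgat1, Agpat3 and Lpin1 values of its group, the lowest adipocyte marker sum of all 25 libraries (17128 CPM) and the highest macrophage marker sum (3894 CPM). Dgat1 (230.3 ± 78.9 CPM on ND, 199 ± 51.0 CPM on HFD, log2 fold change -0.21, SE 0.25, adjusted p = 0.511) and Aqp7 (208 ± 45.4 and 157 ± 42.3 CPM, log2 fold change -0.40, SE 0.20, adjusted p = 0.120) did not pass.

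All 8 macrophage markers rose in WT eWAT on HFD, and their sum went from between 389 and 751 CPM in ND libraries to between 1168 and 3894 CPM. All 5 progenitor and fibroblast markers rose as well (1319 to 1677 CPM, then 2080.4 to 3412 CPM), while the adipocyte marker sum ranged from 27399 to 40201 CPM on ND and from 17128 to 38239 CPM on HFD. Of the 6 adipocyte markers 3 were called lower (median log2 fold change -0.55), as were 3 of the 4 endothelial (median -0.72) and 3 of the 4 mesothelial markers (median -0.87). The part of these shifts in the changes of the 10 genes in eWAT was not tested. A scale set by the 6 adipocyte markers moved the median log2 fold change of all genes to 1.004, with Cfd, 1 of the 6, at -3.41 before that scaling. On that scale 5 of the 10 genes were called higher and 2 lower: Pck1 stood at -1.24 and Mogat1 at -1.42, still below 0, while the calls of Gpam (-0.27, adjusted p = 0.570) and Lpin1 (-0.18, adjusted p = 0.524) were lost and Agpat3 turned to 0.47. With series as a term, the call of Gpam was lost as well (log2 fold change -1.08, adjusted p = 0.114).

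**Figure D2:**
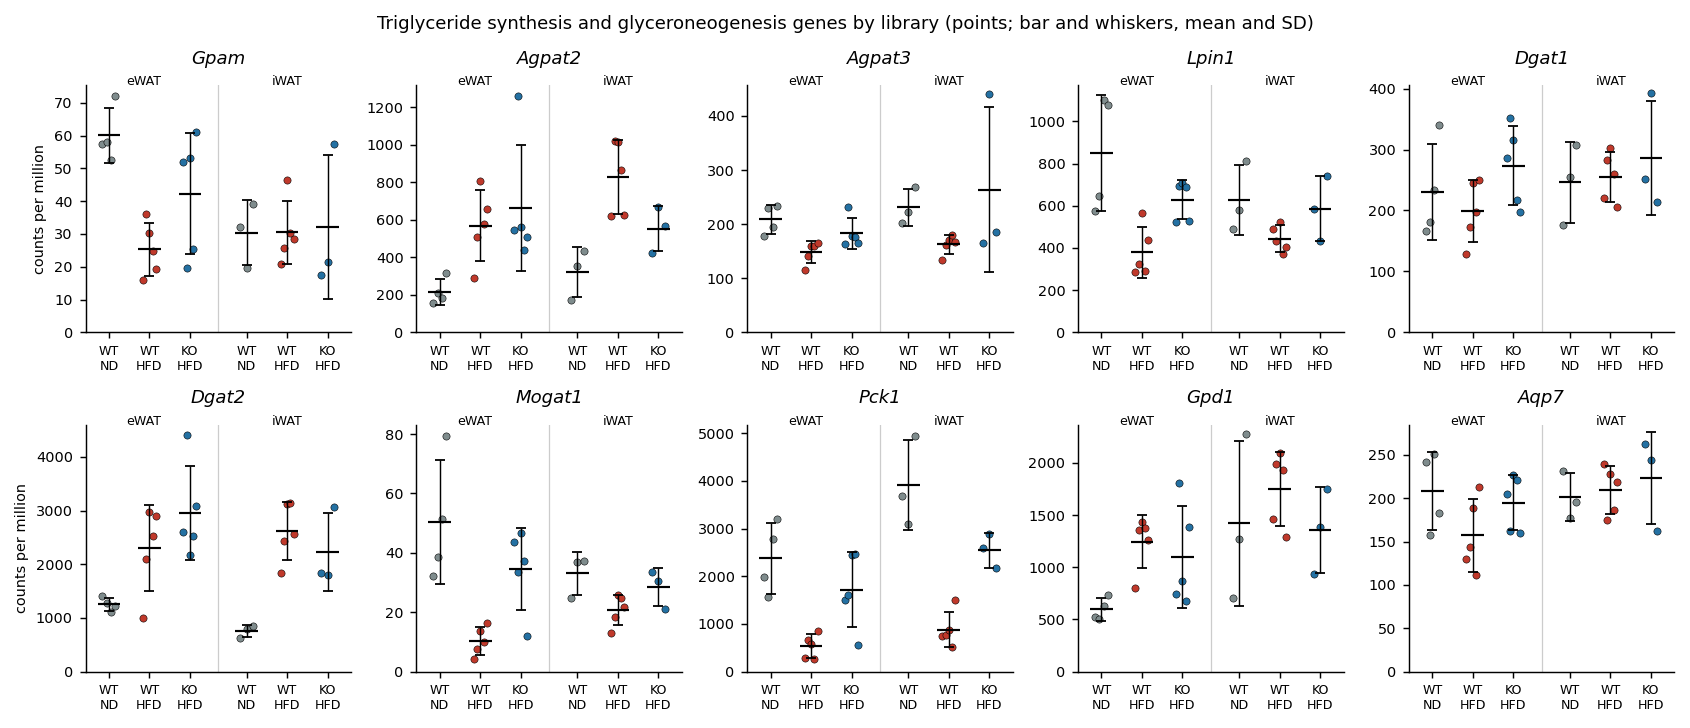
CPM of each gene in every library, by depot and group. Points are libraries, bars are means and whiskers SD. Pck1 and Mogat1 are low in both HFD-fed WT groups, and 4 of the 5 eWAT libraries of HFD-fed KO mice lie above all 5 of HFD-fed WT mice for both genes.

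In WT iWAT on HFD, Pck1, Mogat1 and Lpin1 fell, Pck1 by 4.33-fold, while Dgat2 and Agpat2 rose. Gpam and Gpd1, which changed in eWAT, had log2 fold changes of 0.03 and 0.33 here. Of the 10 genes, 5 passed the test, 2 higher and 3 lower, beside 50.1% of all 14801 genes (25.9% higher and 24.2% lower). Groups did not overlap for 4 of the 10, against 47.1% of all genes, and the median log2 fold change was 0.06 for the 10 and 0.00 for all genes.

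Pck1 was at 3677, 3103 and 4942 CPM in the 3 iWAT ND libraries and at 744, 759.9, 879.6, 516 and 1512 CPM in the 5 HFD libraries of WT mice. The groups lay far apart, 4.33-fold lower on HFD (log2 fold change -2.11, SE 0.30, adjusted p = 0.000401). Dgat2 was at 629, 802 and 852 CPM on ND and at 1836, 2438, 3128, 3146 and 2568 CPM on HFD, each HFD library above each ND library (3.52-fold higher, log2 fold change 1.82, SE 0.26, adjusted p = 0.000422). Agpat2 was at 174, 353 and 435 CPM on ND and at 622, 1022, 1015, 865 and 624 CPM on HFD, also without overlap (2.63-fold higher, log2 fold change 1.40, SE 0.31, adjusted p = 0.00444).

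Mogat1 was at 24.8, 37.1 and 37.3 CPM on ND and at 13.04, 18.4, 25.8, 24.7 and 21.8 CPM on HFD in iWAT, with 1 HFD library above the lowest ND library (log2 fold change -0.64, SE 0.23, adjusted p = 0.0461). Lpin1 was at 490.5, 579 and 811 CPM on ND and at 491, 433, 525, 369.5 and 406 CPM on HFD, where the groups overlapped (log2 fold change -0.47, SE 0.21, adjusted p = 0.0974). Both calls depended on single libraries. Mogat1 was not called without the second (-0.56, adjusted p = 0.148) or the third ND library (-0.57, adjusted p = 0.127), nor with series as a term (-0.77, adjusted p = 0.101). Lpin1 was not called in 6 of the 11 fits that left out 1 library: without the second (-0.53, adjusted p = 0.135) or the third ND library (-0.26, adjusted p = 0.343), or the first (-0.50, adjusted p = 0.111), second (-0.47, adjusted p = 0.127), the fourth (-0.42, adjusted p = 0.144) or the fifth HFD library (-0.44, adjusted p = 0.158) of WT mice. All 6 left out a library of the groups compared. The 11 include 3 that left out a KO library, which is outside this comparison. The Lpin1 call was also lost with series as a term (-0.28, adjusted p = 0.4998), with no filter (adjusted p = 0.131) and on the adipocyte scale (adjusted p = 0.112).

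Agpat3 was at 203, 222 and 269 CPM on ND and between 134 and 180.3 CPM on HFD in WT iWAT. The groups did not overlap, but the gene did not pass (log2 fold change -0.47, SE 0.27, adjusted p = 0.177). The fit takes its spread from all 3 groups, with the second library of KO mice at 440.1 CPM, and without that library the adjusted p was 0.0103 (log2 fold change -0.49). Gpam (30.4 ± 9.90 and 30.5 ± 9.70 CPM, log2 fold change 0.03, SE 0.40, adjusted p = 0.953), Gpd1 (1420.2 ± 794 and 1753 ± 354 CPM, log2 fold change 0.33, SE 0.34, adjusted p = 0.467), Dgat1 (246 ± 66.2 and 255 ± 40.6 CPM, log2 fold change 0.08, SE 0.23, adjusted p = 0.807) and Aqp7 (201 ± 27.5 and 209 ± 27.6 CPM, log2 fold change 0.09, SE 0.17, adjusted p = 0.685) were also not called. Gpd1 was called without the third ND library, the highest of all (2277 CPM; log2 fold change 0.82, adjusted p = 0.0638).

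In iWAT 5 of the 8 macrophage markers were higher on HFD, with sums from 402 to 510.2 CPM on ND and from 394 to 1041 CPM on HFD. All 5 progenitor and fibroblast and all 4 endothelial markers rose, while all 6 B and T cell markers, all 4 skeletal muscle markers and 3 of the 4 brown adipocyte markers (median log2 fold change -2.62) fell. The brown adipocyte markers summed to 162, 424 and 1242 CPM in the 3 ND libraries and to between 46.6 and 87.8 CPM in the 5 HFD libraries of WT mice. The third ND library, which had the highest brown adipocyte sum, was also the highest of the 3 for each of the 10 genes but Aqp7. The 10 genes summed to 10166.5 CPM in it, against 6346 and 6822 CPM in the first and second ND libraries. The adipocyte marker sum was higher on HFD (34893 to 44833 CPM) than on ND (27762 to 33455 CPM). Of the 6 adipocyte markers 4 were called higher and 1 lower (median log2 fold change 0.61). The part of these shifts in the changes of the 10 genes was not tested.

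The diet effect of 3 genes differed between depots in a test of the difference itself (interaction of diet and depot over all 25 libraries; 29% of the 15034 genes tested were called). Mogat1 fell further in eWAT than in iWAT (difference of the log2 fold changes -1.61, SE 0.54, adjusted p = 0.0369). Gpam, which fell in eWAT and stood at 0.03 in iWAT, had a difference of -1.25 (SE 0.53, adjusted p = 0.0946). Dgat2 rose less in eWAT (-0.91, SE 0.38, adjusted p = 0.0945). For Pck1 the difference was -0.02 (SE 0.56, 95% interval -1.11 to 1.08) and for Agpat2 0.02 (SE 0.48, 95% interval -0.92 to 0.95). The 25 fits that left out 1 library include those without a KO library, which stands in neither diet effect. The call for Mogat1 held in all 25 (-1.82 to -1.29). That for Gpam was lost in 15 of them (range -1.48 to -1.01) and that for Dgat2 in 17 (range -1.02 to -0.72), the lowest effect for Gpam being that without the second iWAT ND library (adjusted p = 0.256) and for Dgat2 that without the first eWAT HFD library of WT mice (adjusted p = 0.117). The diet effect on cell type markers also differed between depots, with 4 of the 6 adipocyte markers (median -0.84) and all 4 endothelial markers (median -1.37) lower and 3 of the 8 macrophage markers, all 6 B and T cell markers and all 4 brown adipocyte markers higher in this test. On the scale of the 6 adipocyte markers, which moved the median difference of all genes to 0.97, Mogat1 stood at -0.77 (adjusted p = 0.0949), Gpam at -0.30 (adjusted p = 0.691) and Dgat2 at -0.10 (adjusted p = 0.841). On the same scale without Cfd (median of all genes 0.95) the Mogat1 call was lost as well (-0.74, adjusted p = 0.144). The part of the marker shifts in these differences was not tested.

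**Figure D3:**
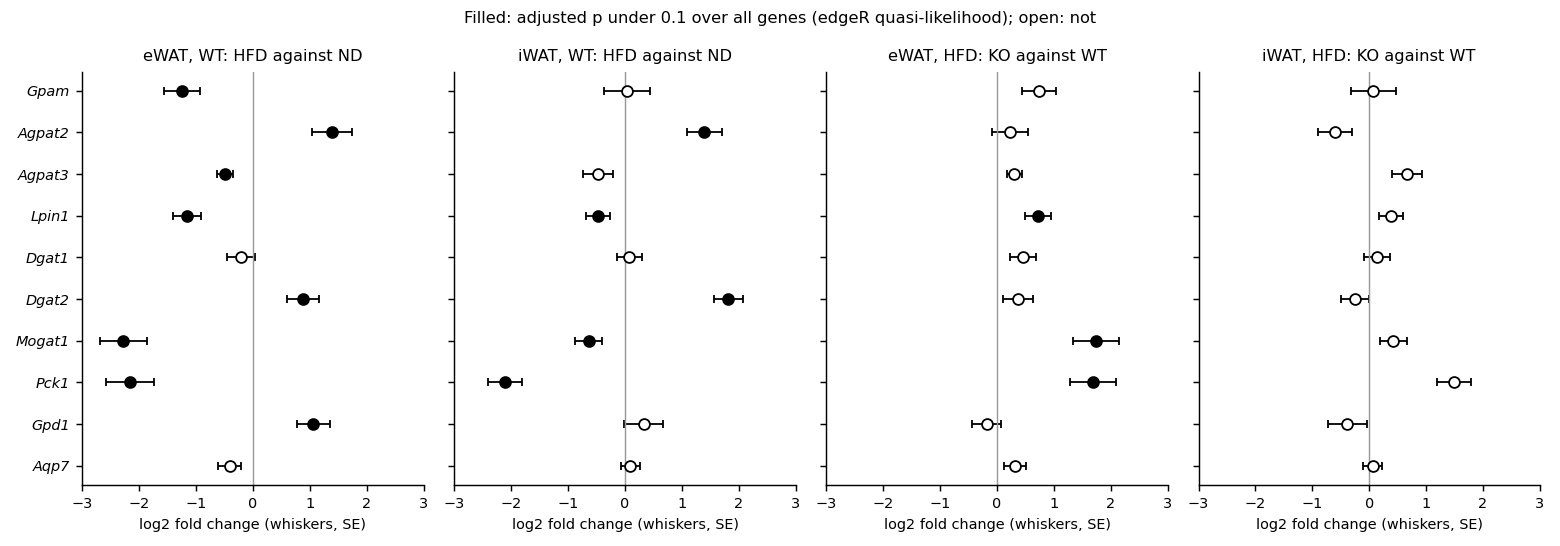
Log2 fold changes of the 10 genes for diet (WT, HFD against ND) and genotype (HFD, KO against WT) in both depots. Whiskers are standard errors, filled points passed an adjusted p of 0.1 over all genes. Pck1 is at -2.16 and -2.11 for diet and at 1.69 and 1.496 for genotype in eWAT and iWAT, the last not past the threshold.

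Between HFD-fed mice, eWAT of KO mice had higher Pck1, Mogat1 and Lpin1 than eWAT of WT mice. These 3 of the 10 genes were called higher, and none lower, beside 19.9% of the 14936 genes (9.13% higher). They are 3 of the 5 genes that were lower on HFD in WT eWAT. Both comparisons share the 5 libraries of HFD-fed WT mice, so an opposite sign in them is no separate evidence. The median log2 fold change was 0.41 for the 10 genes and 0.04 for all genes, and in no gene were the groups free of overlap (7.14% of all genes were).

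Pck1 was at 1505, 1616, 2442, 2467 and 560.5 CPM in the 5 eWAT KO libraries, beside 288, 664, 586, 273 and 848 CPM in WT. The first 4 KO libraries exceeded every WT library and the fifth lay among them (3.23-fold higher, log2 fold change 1.69, SE 0.40, adjusted p = 0.0197). Mogat1 had the same layout, at 43.6, 33.6, 46.8, 37.1 and 11.9 CPM in KO and between 4.24 and 16.3 CPM in WT (3.33-fold higher, log2 fold change 1.74, SE 0.40, adjusted p = 0.0172). Lpin1 was at 523, 694, 707, 688 and 529.7 CPM in KO, with 1 WT library (564 CPM) inside that range and 4 below it (1.65-fold higher, log2 fold change 0.73, SE 0.23, adjusted p = 0.0558). The Lpin1 call was lost without the first (0.63, adjusted p = 0.132), second (0.67, adjusted p = 0.113) or the fourth WT library (0.64, adjusted p = 0.129) and without the third (0.68, adjusted p = 0.118) or the fourth KO library (0.69, adjusted p = 0.112).

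The fifth KO library is the only eWAT KO library in the second series. It also has 1053 CPM of epididymis markers and the highest macrophage marker sum of its group (1214 CPM). Within the first series, which holds 4 WT and 4 KO libraries, the log2 fold change was 2.14 for Pck1 and 2.17 for Mogat1. The second series holds 1 library of each genotype, at 848 (WT) and 560.5 CPM (KO) for Pck1 and at 16.3 and 11.9 CPM for Mogat1, so there the KO library was the lower.

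The remaining 7 genes did not pass in eWAT. Gpam was at 52.0, 19.5, 53.1, 25.5 and 61.2 CPM in KO, where 3 libraries exceeded all WT libraries and 2 lay within their range (log2 fold change 0.74, SE 0.30, adjusted p = 0.118). It passed without the second KO library (0.92, adjusted p = 0.0477), without the fourth (0.88, adjusted p = 0.0915) and without the second WT library (0.89, adjusted p = 0.0950). Agpat3 (log2 fold change 0.30, SE 0.13, adjusted p = 0.144), Aqp7 (0.31, SE 0.19, adjusted p = 0.307), Dgat1 (0.46, SE 0.23, adjusted p = 0.214), Dgat2 (0.36, SE 0.26, adjusted p = 0.386), Agpat2 (0.22, SE 0.32, adjusted p = 0.683) and Gpd1 (-0.18, SE 0.26, adjusted p = 0.679) complete the list. The 3 genes that rose on HFD in WT eWAT thus had log2 differences between KO and WT of -0.18 to 0.36, none past the threshold.

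All 8 macrophage markers were lower in KO than in WT eWAT on HFD, and their sum ranged from 315 to 1214 CPM in KO. Of the 5 progenitor and fibroblast markers 3 were lower, and 4 of the 6 adipocyte markers were higher, with sums from 28721.5 to 45106 CPM. The part of these shifts in the higher Pck1, Mogat1 and Lpin1 was not tested. A scale set by the 6 adipocyte markers moved the median log2 fold change of all genes to -0.96, and 2 of the 10 genes were then called higher and 5 lower. On it Pck1 stood at 0.74 and Mogat1 at 0.85, both still higher in KO, and Lpin1 at -0.19 (adjusted p = 0.458), all above that median.

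**Figure D4:**
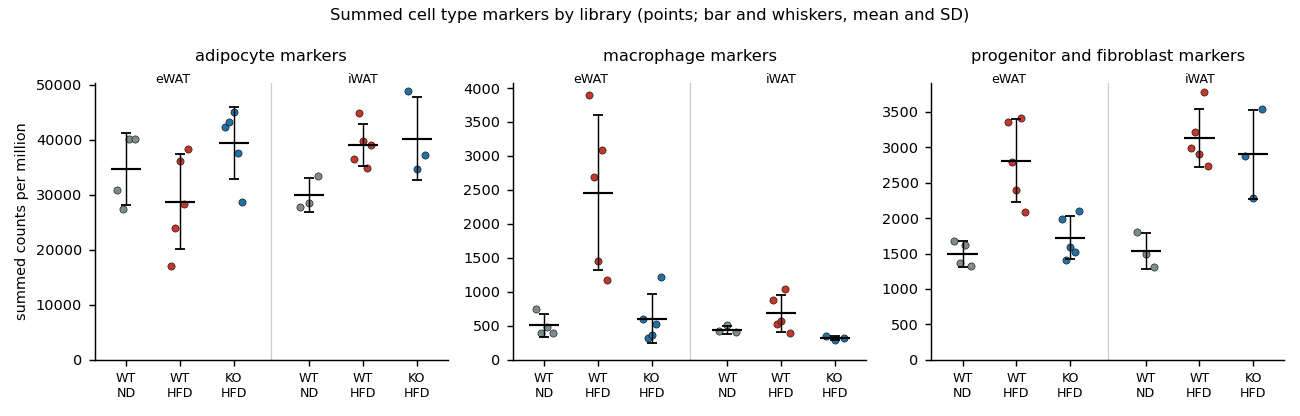
Summed CPM of the 6 adipocyte, 8 macrophage and 5 progenitor and fibroblast markers in every library, by depot and group. Points are libraries, bars are means and whiskers SD. The macrophage sum is between 1168 and 3894 CPM in eWAT of HFD-fed WT mice and at most 1214 CPM in each other group.

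In iWAT no gene of the 10 was called between HFD-fed KO and WT mice, and neither was any other of the 14801 genes (0%). At an unadjusted p under 0.05, 1062 of all genes were higher and 1406 lower in edgeR, and DESeq2's Wald test called 1072 genes (7.35%). Pck1 had the smallest p of the 10. It was at 2584, 2878 and 2163 CPM in KO, all above the WT libraries (744, 759.9, 879.6, 516 and 1512 CPM), a separation found in 1 of the 10 genes and in 8.26% of all genes. The sum of the brown adipocyte markers was apart in the same way, at 135, 286 and 107 CPM in KO and 46.6 to 87.8 CPM in WT. Of the 4 markers, 2 were apart singly and none was called (median log2 fold change 1.41). Their part in the Pck1 values was not tested. The log2 fold change of Pck1 was 1.496 (SE 0.29, 2.82-fold, unadjusted p = 0.000327, adjusted p = 0.136). In the 11 fits that left out 1 library it ranged from 1.38 to 1.79 and passed in 2, without the fifth WT library (1.79, adjusted p = 0.0231), which is the highest WT library and the 1 of the second series, and without the third KO library (1.63, adjusted p = 0.0233). It also passed with DESeq2 (1.53, adjusted p = 6.73e-05), with no filter (1.52, adjusted p = 0.0885), with at least 1 CPM in every library (1.53, adjusted p = 0.0780), on the adipocyte scale (1.28, adjusted p = 0.0873) and within the first series (1.92, adjusted p = 0.0153). It did not pass with DESeq2's size factors in edgeR (adjusted p = 0.125), series as a term (0.122), the replicate block (0.262) or only the groups compared (0.190). Nor did it pass on the adipocyte scale without Cfd (0.140) or without the libraries highest in markers of other tissues (1.41, adjusted p = 0.286).

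Among the other 9 genes of iWAT, Mogat1 was at 33.5, 30.6 and 21.2 CPM in KO (log2 fold change 0.42, SE 0.23, adjusted p = 0.389) and Lpin1 at 582, 433 and 742 CPM (0.38, SE 0.21, adjusted p = 0.397). Agpat2 was at 425, 669 and 568 CPM (log2 fold change -0.60, SE 0.30, adjusted p = 0.336). Agpat3 was at 166, 440.1 and 186 CPM (0.67, SE 0.27, adjusted p = 0.245), and the high value stands in the library with the highest epithelial marker sum. It was called without the third KO library (0.90, adjusted p = 0.0754), and without the second its log2 fold change was 0.11. Log2 fold changes of Dgat1, Dgat2, Gpam, Gpd1 and Aqp7 ran from -0.39 to 0.14, with adjusted p from 0.612 to 0.956. The macrophage marker sum was between 285 and 348 CPM in the KO libraries, below the 394 to 1041 CPM of WT, and none of the 8 markers was called. The genotype effects of the 2 depots were compared in a test of the difference, in which none of the 10 genes was called and 0.00665% of all 15034 genes was. The largest difference of the 10 was that of Mogat1 (1.28, SE 0.53, unadjusted p = 0.0232, adjusted p = 0.419), the only 1 of them with an unadjusted p under 0.05, and for Pck1 it was 0.17 (SE 0.55).

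Set against ND-fed WT mice, eWAT of HFD-fed KO mice had the same 3 genes higher as eWAT of HFD-fed WT mice, and none lower. Both comparisons share the 4 eWAT ND libraries, so the same 3 genes are no separate evidence. Diet and genotype differ together between HFD-fed KO and ND-fed WT mice, in either depot. Agpat2 (log2 fold change 1.61, SE 0.35, adjusted p = 0.0140), Dgat2 (1.24, SE 0.29, adjusted p = 0.0162) and Gpd1 (0.88, SE 0.28, adjusted p = 0.0482) were higher. These 3 of the 10 genes stand beside 26.5% of all genes called and 13.5% called higher. Pck1 had a log2 fold change of -0.47 (SE 0.42, adjusted p = 0.439), Mogat1 of -0.54 (SE 0.41, adjusted p = 0.364), Lpin1 of -0.44 (SE 0.24, adjusted p = 0.216) and Gpam of -0.50 (SE 0.31, adjusted p = 0.266), all below 0 and none past the threshold. The Gpd1 call was lost without the 2 eWAT libraries highest in epididymis markers (0.71, adjusted p = 0.168), without the first (0.80, adjusted p = 0.111) or second ND library alone (0.80, adjusted p = 0.116), without the second KO library (0.63, adjusted p = 0.113), on the adipocyte scale (0.995, adjusted p = 0.210) and once series entered as a covariate (1.06, adjusted p = 0.129). It was also lost with the replicate block (0.75, adjusted p = 0.111) and on the adipocyte scale without Cfd (0.72, adjusted p = 0.178). In iWAT, Dgat2 (1.57, SE 0.27, adjusted p = 0.00194) and Agpat2 (0.79, SE 0.33, adjusted p = 0.0972) were higher, 2 of the 10 beside 34.6% of all genes (18.5% higher). The Agpat2 call there was lost without the libraries highest in markers of other tissues (0.34, adjusted p = 0.427) and in 9 of the 11 fits that left out 1 library (0.49 to 0.86, adjusted p of 0.101 to 0.238). Pck1 was -0.62 (SE 0.34, adjusted p = 0.201) in iWAT, where all 3 KO libraries lay below all 3 ND libraries. Such a separation was found downward in 2824 and upward in 2640 of the 14801 genes. Pck1 passed with the replicate block (-0.59, adjusted p = 0.0946) and on the adipocyte scale with (-0.88, adjusted p = 0.0381) and without Cfd (-1.07, adjusted p = 0.0271). It also passed without the fifth WT library on HFD (-0.62, adjusted p = 0.0781), and under no other alternative.

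Between depots, 3 of the 10 genes were called in ND-fed mice, beside 31.7% of the 15034 genes. Gpam (log2 fold change of eWAT against iWAT 0.98, SE 0.41, adjusted p = 0.0858) and Dgat2 (0.72, SE 0.30, adjusted p = 0.0827) were higher in eWAT, without overlap. Gpd1 (-1.25, SE 0.34, adjusted p = 0.0108) was lower, with overlap. Of the 15034 genes, 2851 were higher in eWAT without overlap on ND, and 2540 were lower. Without the libraries highest in markers of other tissues the calls of Gpam (1.01, adjusted p = 0.159) and Dgat2 (0.56, adjusted p = 0.302) were lost. They were also lost on the adipocyte scale (Gpam 0.66, adjusted p = 0.371, and Dgat2 0.40, adjusted p = 0.392). All 6 B and T cell, all 4 brown adipocyte and all 4 skeletal muscle markers were lower in eWAT than in iWAT on ND. Of the 6 adipocyte markers 2 were called higher in eWAT (median log2 fold change 0.30) and none lower. The part of these marker shifts in the differences between depots was not tested. On HFD, WT mice had lower Mogat1 in eWAT (-1.001, SE 0.34, adjusted p = 0.0573), 1 of 10 genes beside 18.6% of all. All 10 genes had values below 0 there (-1.001 to -0.14), and on the adipocyte scale, which moved the median of all genes to 0.67, 7 of those values turned positive. HFD-fed KO mice had no call among the 10, beside 3.81% of all genes, with log2 fold changes of -0.56 to 0.40. Of the 25 fits that left out 1 library, only those without 1 of the 4 eWAT or 3 iWAT ND libraries drop a library compared on ND. Every loss of an ND call came from these fits. The Gpd1 call was lost only without the third iWAT ND library (-0.73, adjusted p = 0.151). That for Dgat2 was lost in 6 fits (range 0.60 to 0.81) and that for Gpam in 5 (range 0.75 to 1.21). The Mogat1 call on HFD was lost in 5 fits (range -1.20 to -0.80). Each of them dropped 1 of the 5 eWAT or 5 iWAT libraries of HFD-fed WT mice.

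The pathway holds further genes, of which 20 were listed and 17 (eWAT) or 18 (iWAT) were abundant enough to test. In WT eWAT on HFD, 12 of the 17 passed, 4 higher and 8 lower, beside 51.8% of all genes (24.8% higher and 26.9% lower), with a median log2 fold change of -0.41. Of these calls, those of Mogat2 (adjusted p = 0.169) and Tmem68 (adjusted p = 0.135) were lost without the libraries highest in markers of other tissues. Gpat4, the glycerol-3-phosphate acyltransferase of the endoplasmic reticulum, fell with Gpam (log2 fold change -1.44, SE 0.20, adjusted p = 0.000328), and so did the dehydrogenase-like Gpd1l (-0.62, SE 0.10, adjusted p = 0.000714). The lipid droplet factor Fitm2 (-0.84, SE 0.19, adjusted p = 0.00390) and pyruvate carboxylase Pcx (-0.93, SE 0.25, adjusted p = 0.00943), which feeds glyceroneogenesis, were lower as well. Agpat4, a paralog of Agpat3, rose (0.79, SE 0.15, adjusted p = 0.00150). The sizes of the decreases of Aqp9, another glycerol channel (-2.50, SE 0.91, adjusted p = 0.0395), and of the glycerol kinase Gk (-1.27, SE 0.60, adjusted p = 0.0988) rested on the second ND library, the 1 with epididymis RNA. Aqp9 was at 83.9 CPM and Gk at 137 CPM at most on ND, and without that library and the fifth KO library the log2 fold changes were -0.08 (adjusted p = 0.919) and -0.22 (adjusted p = 0.616). The Gk call held in only 4 of 14 fits that left out 1 library.

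In WT iWAT, 9 of the 18 passed on HFD, 5 higher and 4 lower, beside 50.1% of all genes. Gpat4 (-1.23, SE 0.23, adjusted p = 0.00166), Gpd1l (-0.54, SE 0.12, adjusted p = 0.00466) and the acyltransferase Tmem68 (-0.57, SE 0.13, adjusted p = 0.00507) fell. Pdk4, the kinase that turns off pyruvate dehydrogenase and so spares pyruvate for glyceroneogenesis, fell too (-1.44, SE 0.37, adjusted p = 0.00973). Mogat2, the second monoacylglycerol acyltransferase, rose (3.04, SE 0.57, adjusted p = 0.00187), from 0.803 ± 0.371 CPM (n = 3) to 6.47 ± 2.09 CPM (n = 5), opposite to Mogat1. Bscl2, the seipin gene of lipid droplet formation, also rose (0.73, SE 0.20, adjusted p = 0.0148). Between KO and WT eWAT on HFD, 2 of the 17 were called, beside 19.9% of all genes, Gpat4 higher (0.74, SE 0.19, adjusted p = 0.0235) and Agpat4 lower (-0.66, SE 0.14, adjusted p = 0.0137), in both cases without overlap. Of the 17, 3 were higher and 1 was lower without overlap, called or not, beside 7.14% of all genes in either direction. In iWAT 0 of 18 were called for genotype, beside 0% of all genes.

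Of 9 transcriptional regulators of these genes, 4 fell in WT eWAT on HFD and none rose, beside 26.9% of all genes lower and 24.8% higher. They were Foxo1 (-0.79, SE 0.20, adjusted p = 0.00796), Rxra (-0.65, SE 0.16, adjusted p = 0.00697), the carbohydrate-responsive factor Mlxipl (-0.89, SE 0.25, adjusted p = 0.0110) and the coactivator Ppargc1a (-0.64, SE 0.26, adjusted p = 0.0622), whose call was lost without the third (-0.51, adjusted p = 0.131) or the fourth HFD library of WT mice (-0.60, adjusted p = 0.118) or the fourth ND library (-0.52, adjusted p = 0.170). Pparg, the master factor of adipocytes and a regulator of Pck1, did not pass in any of the 4 diet and genotype comparisons. In WT iWAT, Foxo1 (-0.59, SE 0.15, adjusted p = 0.00884), Mlxipl (-0.59, SE 0.19, adjusted p = 0.0272) and Ppargc1a (-1.03, SE 0.27, adjusted p = 0.0119) fell and the liver X receptor gene Nr1h3 rose (0.34, SE 0.11, adjusted p = 0.0261). These 4 of the 9 stand beside 50.1% of all genes called (25.9% higher and 24.2% lower). In eWAT of KO mice, Mlxipl (0.75, SE 0.23, adjusted p = 0.0530) and the glucocorticoid receptor gene Nr3c1 (0.34, SE 0.12, adjusted p = 0.0815) were higher than in WT. These 2 of the 9 stand beside 19.9% of all genes called (9.13% higher). All 9 regulators had positive values (median 0.41, that of all genes 0.04). Leaving out 1 library at a time kept the Mlxipl call in 10 of 14 fits and the Nr3c1 call in 3 of 14.

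**Figure D5:**
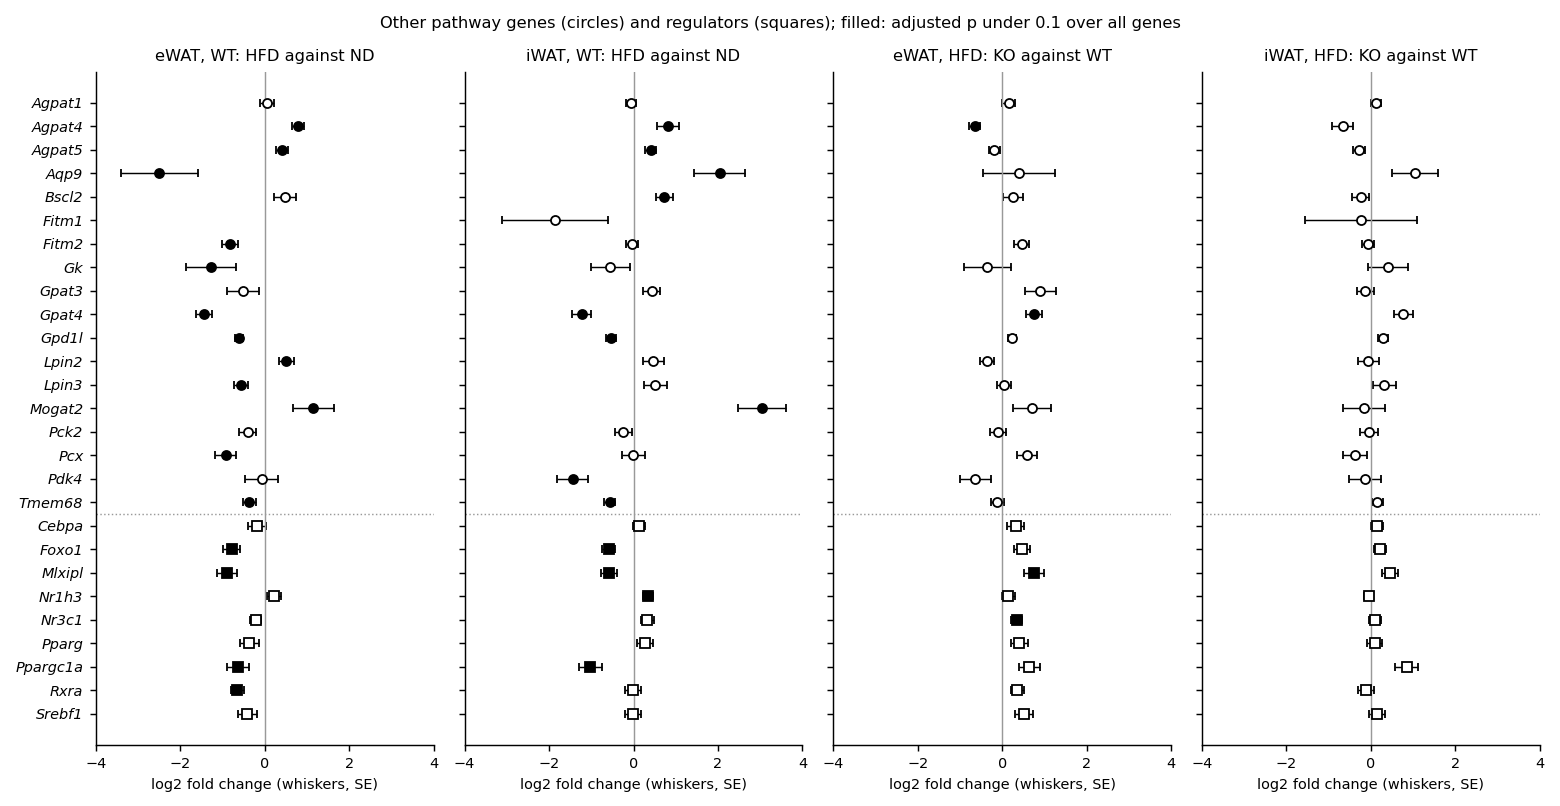
Log2 fold changes of the other pathway genes (circles) and regulators (squares) for diet and genotype in both depots, with standard errors. Filled symbols passed an adjusted p of 0.1 over all genes. Gpat4 is at -1.44 and -1.23 for diet and at 0.74 for genotype in eWAT, and Mogat2 is at 3.04 for diet in iWAT.

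The genes whose pattern over libraries was most like the mean of the 10 (Pearson's r of log2 CPM, given as a description across libraries that share group differences) were, over the 14 eWAT libraries and among 9644 genes, the hormone-sensitive lipase gene Lipe (r = 0.965), Gpat3 (0.960), C030006K11Rik (0.955), Pgm1 (0.954) and Bphl (0.952). Over the 11 iWAT libraries and among 9691 genes they were Tmem70 (0.943), Cpt2 (0.928), Mtch2 (0.905), Coasy (0.898) and Ppcs (0.892). No gene was in both lists.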

How the data were processed

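RNA of 25 snap-frozen eWAT and iWAT samples was sequenced from directional mRNA libraries. Per the labels and the study's methods, the authors trimmed reads (cutadapt), aligned them to the mouse genome (mm10, GRCm38) with STAR and summarized them per gene; the tool that counted reads and its strand setting are not given in the sources used here. The deposited file of each library holds raw counts per Ensembl gene, the values analysed here, and FPKM by the authors, which follow from those counts and the gene lengths to within 5e-04. Rows that name no gene (6.41 to 11.9% of reads in no gene, 1.52 to 2.07% ambiguous) were left out. Of the IDs, 54723 had a symbol in the reference table and 29 did not.

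Genes averaging 1 CPM or more over the libraries fitted were tested with edgeR 4.0.16 (R 4.3.3; TMM normalization, quasi-likelihood F-test, two-sided, Benjamini-Hochberg adjustment over all genes tested, threshold 0.1). Each depot was fitted alone with its 3 groups (14 eWAT and 11 iWAT libraries); depots and interactions were compared in 1 fit of all 6 groups. Standard errors are the log2 fold change divided by the square root of F, and 95% intervals assume a normal error. CPM shown in the text share 1 TMM scale over all 25 libraries; TPM were computed from counts and gene lengths. Alternatives (given in the closing section) were other filters and scalings, DESeq2 1.42.0, a threshold of 0.05 and a replicate block. Others were the series as a term, the first series alone, and leaving out each library. A scaling without Cfd and the removal of the 4 libraries highest in markers of other tissues were added after seeing the data. Fits that left out 1 library ran over every library in the fit, also those outside the groups compared, which share the estimate of the spread. Groups and replicate numbers came from the labels. The labels do not say that replicates are separate animals, but the paper's captions give the same group sizes as numbers of mice. P-values measure the spread between these samples. No pair of libraries within a group agreed within sampling noise (chi-square per degree of freedom at least 25.3 in 42 pairs). The fit was tested on simulated data. Depth limits these genes little, since each had at least 179 reads in each library.

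The 10 genes, the lists and the tests were chosen with earlier results of these data known. Named are all 10 genes, Acod1, from the other pathway genes and regulators at most the 6 with the smallest adjusted p per comparison among those called (Aqp9, Gk and Pparg were added after their values were seen), and the 5 genes of each depot most like the mean of the 10, among genes averaging 10 CPM or more. Acod1 lies at chr14:103046977-103056573.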

Additional observations from a re-analysis of the deposited data

Results flagged for a closer look

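In groups of 4 or 5 libraries, a library was marked when it lay farther from its neighbour than Dixon's 95% limit allows. This was looked for in 40 sets of values and found in 3, and chance marks about 1 in 20. Agpat2 in the second eWAT library of HFD-fed KO mice was at 1262 CPM, with the other 4 libraries at 441 to 562 CPM, and without it the log2 fold change between KO and WT was -0.15 in place of 0.22. Agpat3 in the same library was at 232 CPM, with the others at 163 to 179 CPM. That library has the smallest depth (31405063 counted reads), the largest share of reads in its 10 most abundant genes (23.2%) and the lowest TMM factor (0.831) of all 25. Gpd1 in the first eWAT library of HFD-fed WT mice was at 801 CPM, with the others at 1258 to 1436 CPM, and that library also had the lowest adipocyte and the highest macrophage marker sum of its group.

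The diet effect differed between eWAT and iWAT, in a test of the difference, for Mogat1 (-1.61 on the log2 scale, adjusted p = 0.0369), Gpam (-1.25, adjusted p = 0.0946) and Dgat2 (-0.91, adjusted p = 0.0945). The 2 libraries highest in epididymis markers are in eWAT, and those highest in muscle and in epithelial markers are in iWAT. Without these 4 the difference was -1.28 for Gpam (adjusted p = 0.137) and -0.75 for Dgat2 (adjusted p = 0.248), and Mogat1 was still called. On the adipocyte scale without Cfd the Mogat1 difference was -0.74 (adjusted p = 0.144).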

How the results depend on the processing

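Over all 11 comparisons and 10 genes, 3230 fits were made under an alternative; 2904 kept the direction and the side of the threshold, and a called value changed sign in 2, both on a scale set by adipocyte markers. Each of the 10 genes had at least 179 reads in each library, and 2 of the iWAT groups hold only 3 libraries each.

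Scaled to the 6 adipocyte markers, the median of all genes moved to 1.004 (eWAT diet; 9916 genes higher and 588 lower, in place of 3705 and 4025), -0.96 (eWAT genotype; 220 and 11351, in place of 1364 and 1612) and -0.31 (iWAT genotype; 115 and 789, in place of 0 and 0). In eWAT, log2 fold changes for diet turned to 0.47 (Agpat3), 0.75 (Dgat1) and 0.56 (Aqp7), and for genotype to -0.65 (Agpat3), -0.19 (Lpin1), -0.46 (Dgat1), -0.14 (Gpam), -0.64 (Agpat2), -0.64 (Aqp7) and -0.43 (Dgat2), with 7 genes called for genotype. In iWAT, those for genotype turned to -0.11 (Dgat1), -0.22 (Gpam) and -0.22 (Aqp7), with 1 gene called. Without Cfd among the markers the medians were 0.40 (eWAT diet; 5021 and 1163), -0.60 (eWAT genotype; 315 and 7358) and -0.58 (iWAT diet; 1268 and 8179, in place of 3830 and 3585). Dgat1 then stood at 0.17 for eWAT diet, eWAT genotype values turned to -0.29 (Agpat3), -0.10 (Dgat1), -0.30 (Agpat2), -0.27 (Aqp7) and -0.12 (Dgat2), and iWAT diet values to -0.51 (Dgat1), -0.24 (Gpd1), -0.53 (Gpam) and -0.48 (Aqp7). With that scale 4 genes were called for iWAT of KO on HFD against ND and 1 for the interaction of genotype. The scaling itself shifts every gene by the same amount in a library.

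With series as a term, 3 genes were called for iWAT diet and 1 for iWAT of KO on HFD against ND. Dgat1 (-0.27) and Aqp7 (-0.055) turned for iWAT diet and Gpam (-0.24) for iWAT genotype. In the first series alone, 2 genes were called for iWAT genotype and Gpam was at -0.66. Without the 4 libraries highest in markers of other tissues, 1 gene was called between depots on ND and 1 for the interaction of diet, and Dgat1 turned to -0.13 (iWAT diet) and -0.14 (iWAT genotype) and Gpd1 to -0.0060 (iWAT diet). With at least 1 CPM in every library, with no filter and with DESeq2, 1 gene was called for iWAT genotype, and with the first of these Gpam was at -0.019 for iWAT diet. Of all genes, DESeq2 called 7.35% for iWAT genotype. With no filter, 1 gene was called between depots on ND and 1 for the interaction of diet, and DESeq2 called 2 between depots in HFD-fed WT mice. At a threshold of 0.05, 1 gene was called for iWAT of KO on HFD against ND, 1 between depots on ND, 0 between depots in HFD-fed WT mice and 1 for the interaction of diet. With only the groups compared, 1 was called for iWAT of KO on HFD against ND. The cause of each of these changes was not tested. Counts of called genes in this section without a share of all genes beside them only describe how calls moved with the setting.

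Leaving out 1 library at a time, between 3 and 6 genes were called for iWAT diet, 0 and 2 for iWAT genotype, 1 and 2 for iWAT of KO on HFD against ND, 1 and 3 between depots on ND, 0 and 2 between depots in HFD-fed WT mice, 0 and 1 in HFD-fed KO mice and 1 and 4 for the interaction of diet. Values that changed sign ranged from -0.15 to 0.38 (Agpat2, eWAT genotype), -0.35 to 0.037 (Dgat1, eWAT diet), -0.0035 to 0.19 (Aqp7, iWAT diet), -0.13 to 0.24 (Dgat1, iWAT diet), -0.21 to 0.24 (Gpam, iWAT diet), -0.0047 to 0.82 (Gpd1, iWAT diet), -0.032 to 0.28 (Aqp7, iWAT genotype), -0.13 to 0.34 (Dgat1, iWAT genotype) and -0.64 to 0.38 (Gpam, iWAT genotype).

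With the replicate number as a replicate block, 8 of the 10 genes were called for eWAT diet, 3 for eWAT genotype, 4 for iWAT diet (Lpin1 lost, -0.33, adjusted p = 0.207) and 0 for iWAT genotype, where Gpam stood at -0.069. Lpin1 was then called for the interaction of diet (-0.70, adjusted p = 0.0730). The labels do not say what a shared number means. Deviations of same-numbered libraries from their group means correlated at -0.26 to 0.30 within depots (over 0.1 in 12 of 22 pairs), and a library correlated best with its own number in 19 of 44 cases, while between the depots they correlated at -0.15 to 0.60 (over 0.1 in 6 of 11 pairs). Not every pair was over 0.1, so the numbers were not taken to pair libraries. Whether eWAT and iWAT libraries of 1 number come from 1 mouse is not given, and the comparisons between depots treat all 25 libraries as independent.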
